A study of Mus musculus with 28 samples.

Results

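The snoRNA host genes described here were Snhg1, Snhg3, Snhg5, Snhg6, Snhg8, Snhg12, Gas5 and Zfas1. They were taken by symbol from a table of 55450 genes measured by RNA-seq in 12 libraries, and each of the 8 symbols was found in 1 row. The cells were C10, a mouse Pre-B cell line derived from HAFTL cells, in which a CEBPalpha-ER transgene couples the transcription factor C/EBPα to a hormone-binding domain and drives the conversion of Pre-B cells into macrophages once β-estradiol is added. The 0h group was not induced, and the 1h, 12h and 48h groups had been exposed for that time to 100 nM β-estradiol with the cytokines IL-3 and CSF-1. Each group had 3 biological replicates. Every group, the 0h controls included, carried the transgene and came from 1 cell line, so the p-values below measure the spread between replicates of that line. The 8 hosts were measured as host transcripts, and the short snoRNAs inside them are separate rows of the table.

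Many small nucleolar RNAs (snoRNAs), though not all, guide a chemical change at a chosen base of ribosomal RNA. It is a methylation of the ribose for the box C/D class and the conversion of uridine into pseudouridine for the box H/ACA class. Most snoRNAs of vertebrates are not made from genes of their own but are cut out of the introns of a longer host transcript after splicing. Some hosts are ribosomal protein or translation factor genes. Others, such as those described here, have exons with no long open reading frame, and their spliced RNA often starts with a run of pyrimidines, the 5′ terminal oligopyrimidine (TOP) tract known from ribosomal protein mRNAs, and is often destroyed by nonsense-mediated decay (NMD). Proliferating cells that build many ribosomes are known for high expression of such hosts, and Gas5 was named for its accumulation in cells that have stopped growing.

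The 8 hosts lie on 6 chromosomes of the mouse genome (build mm10, annotation GENCODE M21), and none is annotated as protein coding. Gas5 (ENSMUSG00000053332, chr1:161034422-161038539, plus strand) contains 10 annotated snoRNA genes and Snhg1 (ENSMUSG00000108414, chr19:8723475-8726443, plus strand) contains 8. Snhg12 (ENSMUSG00000086290, chr4:132308623-132311024, plus strand) contains 5, and Zfas1 (ENSMUSG00000074578, chr2:167062934-167065862, plus strand) contains 3. Snhg3 (ENSMUSG00000085241, chr4:132348014-132353686, minus strand) holds Snora73a and Snora73b, and Snhg5 (ENSMUSG00000097195, chr9:88521050-88522929, minus strand) holds Snord50a and Snord50b. Snhg6 (ENSMUSG00000098234, chr1:9941959-9944118, minus strand) holds Snord87, and Snhg8 (ENSMUSG00000104960, chr3:123507552-123508404, minus strand), the shortest of the 8 at 853 bases, holds Snora24. Snord80 of Gas5 and Snora16a of Snhg12 are each annotated more than once at nearly the same bases, and every entry is counted. Of these 32 snoRNA genes, Snora73b and Snord87 lie wholly within introns of their host in every annotated transcript. The other 30 overlap an exon of at least 1 annotated host transcript.

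The start of a host is shown here because a TOP tract, a C at the first base followed by pyrimidines, is the feature by which these transcripts are usually recognised. RefSeq (GRCm38.p6) gave a start for 7 of the 8 hosts, with 2 for Gas5, and Snhg6 is named only. Each line runs 5′ to 3′ on the strand of the gene from 5 bases before the annotated start to 25 bases from it onwards, and the capitals mark a C followed by at least 4 pyrimidines (C or T).
Snhg8, chr3:123508312-123508341, minus strand: gaagtCTCTTTggctgcgatccgcctacga
Snhg12, chr4:132308673-132308702, plus strand: agtCCTTTCTCgcttcatccgcggtccctg
Gas5, first start, chr1:161034596-161034625, plus strand: cccgcgagctcgacagcccggagccaaagg
Gas5, second start, chr1:161035161-161035190, plus strand: tcagCCTTTCggagctgtgcggcattctga
Snhg3, chr4:132353662-132353691, minus strand: cgcctgaCTTCCgggcgttacttaaggtat
Snhg5, chr9:88522873-88522902, minus strand: gaaccgggctcgttCTTTTacgacggagcc
Snhg1, chr19:8723482-8723511, plus strand: tcggcctcatttttccttgttcggggtaag
Zfas1, chr2:167062929-167062958, plus strand: cccgggcggccgcaggtctcggctggcccc
Such a tract lay in 5 of the 8 windows, and 34.6% of 32851 RefSeq promoters had one in the same window. Those promoters leave out 1 chromosome, which holds none of the hosts. The tract of Snhg8 began exactly at the annotated start, as in 2.51% of the same promoters, and those of the second Gas5 start and of Snhg12 began 1 and 2 bases before it. The windows of Snhg1, Zfas1 and the first Gas5 start had no such tract. In the 300 bases around each start, from 250 before to 50 after, none of the 8 windows held CACGTG, the E-box read by MYC, which 7.15% of the same promoters held. None held TTGCNNAA on either strand, a form of the C/EBP motif, which 10.8% held. These matches describe letters in a window and say nothing of binding.

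TPM are shares of each library, and the libraries were not of equal make-up. A pair of genes at a ribosomal RNA locus took 70.3% to 82.9% of the TPM, and the number of genes with at least 1 TPM ranged from 7043 to 9811. Over the 16415 genes with a mean of at least 0.1 TPM, the log2 fold change against 0h had a median of 0.59 at 1h, a median of 0.34 at 12h and one of -0.18 at 48h. The changes of the hosts are therefore also given relative to that median, or after median-of-ratios scaling of the libraries, which brought the median to between 0.021 and 0.072. The labelled cell types were visible in their markers: the summed TPM of 11 Pre-B cell markers was 305 to 343 at 0h and 29.9 to 41.9 at 48h, and that of 9 macrophage markers was 10 to 11.3 at 0h and 1039 to 1223 at 48h. In these bulk samples fewer cells with a transcript and less of it per cell cannot be told apart. Of 10 markers of other cell types, only Pecam1 passed the filter on low values, with 5.39 ± 0.861 TPM at 0h and 6.45 ± 1.06 at 48h, while Cd3e, Cd3g, Hbb-bs, Hba-a1, Col1a1, Col1a2, Epcam and Ncr1 had a mean of 0 at 0h and at 48h.

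In uninduced cells the mean levels of the 8 hosts ran from 3.53 to 72.2 TPM. Gas5 was the most abundant, with 84.7, 63.2 and 68.7 TPM in the 3 libraries at 0h (72.2 ± 11.2, mean ± SD, n = 3). Zfas1 followed with 18.5 ± 4.21 TPM and Snhg1 with 16.3 ± 3.23, and their libraries overlapped, so their order was not resolved. Snhg5 (9.29 ± 1.05 TPM) and Snhg12 (7.47 ± 0.907) stood apart from each other and from their neighbours in the order. Snhg8 (4.82 ± 0.832), Snhg6 (4.02 ± 1.73) and Snhg3 (3.53 ± 1.72) came last with overlapping libraries. Summed over the 8 hosts, the 0h libraries held 136 ± 20.2 TPM and the 1h libraries 189 ± 9.97. The sum was 67.4 ± 16.3 TPM at 12h and had come down to 31.3 ± 5.7 TPM at 48h.

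**Figure D1:**
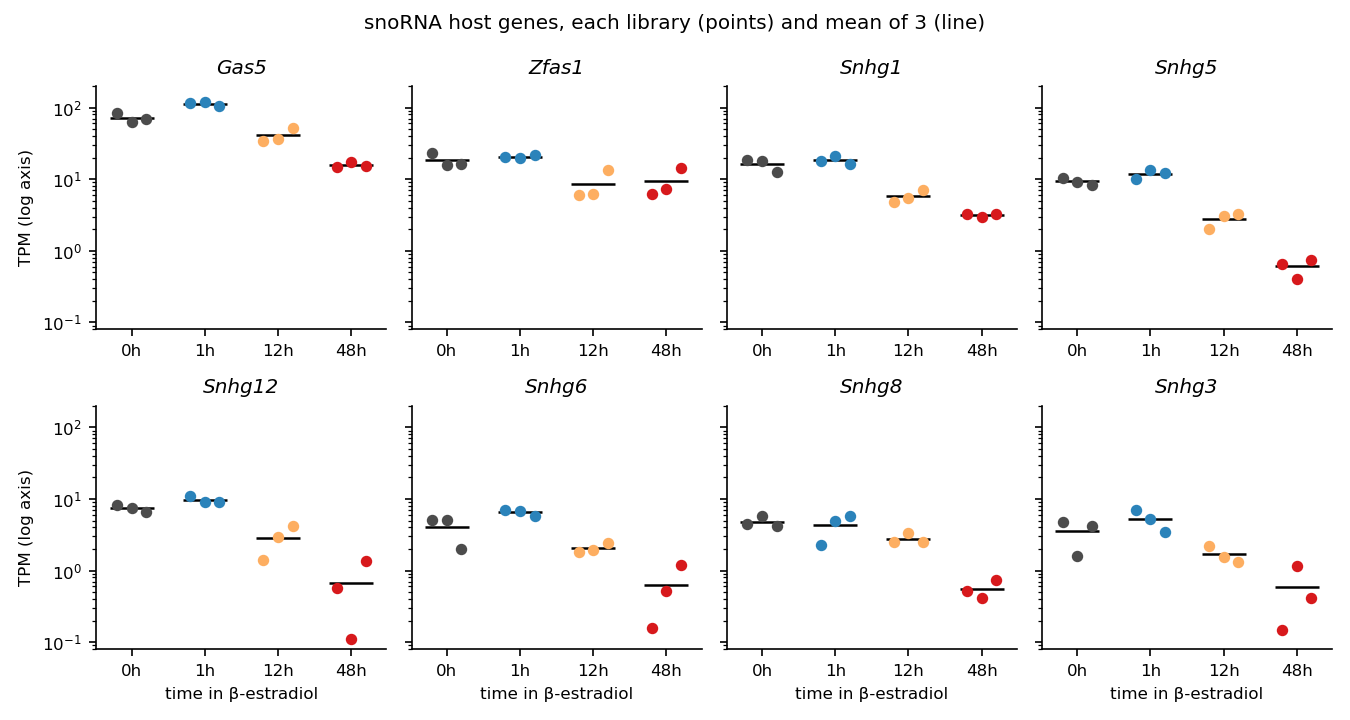
TPM of each host in each library, on a log axis, at 0h, 1h, 12h and 48h of β-estradiol; points are libraries and lines are means of 3. All 8 hosts are lower in every 48h library than in every 0h library, and Zfas1 is the one whose 12h and 48h libraries overlap.

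All 8 hosts had fallen by 48h. For each of the 8, all 3 libraries at 48h lay below all 3 at 0h, as they did for 30.8% of the genes tested. In a limma fit to all 12 libraries, with Benjamini-Hochberg adjustment over all genes, all 8 were called lower at 48h than at 0h (adjusted p under 0.05), and all 8 were lower by more than 1 on the log2(TPM + 0.1) scale, beside 27.2% and 23.1% of all genes. None was called higher by limma, beside 15.9% of all genes, and none was higher at an unadjusted p under 0.05. After median-of-ratios scaling 7 of the 8 remained called lower, beside 22.0% of all genes, and Zfas1 did not. The median log2 fold change of the 8 was -2.64 as deposited and -2.33 after scaling, beside -0.18 and 0.072 for all genes.

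Snhg5, host of the box C/D snoRNAs Snord50a and Snord50b, and Snhg12 had the most negative log2 fold changes, and their order was not resolved: without replicate 3 at 48h that of Snhg12 was the more negative (-4.33 against -3.92). The Snhg5 libraries held 10.4, 9.06 and 8.37 TPM at 0h and 0.66, 0.4 and 0.75 at 48h. The 48h libraries lay close together and far below every other time point, and the log2 fold change was -3.77 (SE 0.25, adjusted p = 3.01e-07, limma), or -3.59 relative to the median of all genes. Snhg12, which carries Snora16a, Snora44, Snora61 and Snord99, went from 8.34, 7.55 and 6.53 TPM to 0.57, 0.11 and 1.34. Its 48h libraries were widely spread, and all lay far below those at 0h (log2 fold change -3.68, SE 0.57, adjusted p = 0.000267, limma). Snhg8, host of the H/ACA snoRNA Snora24, held 4.47, 5.77 and 4.22 TPM at 0h against 0.51, 0.42 and 0.74 at 48h, a log2 fold change of -2.92 (SE 0.33, adjusted p = 2.24e-05, limma).

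The low-level hosts Snhg6 and Snhg3 fell with more spread between replicates. Snhg6, host of Snord87, had 5.02, 5.02 and 2.02 TPM at 0h and 0.16, 0.51 and 1.2 at 48h. Replicate 3 was its lowest library at 0h and its highest at 48h, and the groups did not overlap (log2 fold change -2.69, SE 0.50, adjusted p = 0.00101, limma). Snhg3, host of the long H/ACA snoRNAs Snora73a and Snora73b, had 4.8, 1.58 and 4.22 TPM at 0h and 0.15, 1.17 and 0.42 at 48h. Its lowest 0h library and its highest 48h library, both replicate 2, were close together without overlapping, and the log2 fold change was -2.58 (SE 0.56, adjusted p = 0.00286, limma).

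Snhg1 and Gas5, at higher levels, had tighter replicates. Snhg1 had 18.3, 18.1 and 12.6 TPM at 0h and 3.25, 2.94 and 3.23 at 48h, a log2 fold change of -2.32 (SE 0.20, adjusted p = 2.66e-06, limma), which is 5-fold lower. Gas5, host of more snoRNAs than any other of the 8, had 14.9, 17.2 and 15.4 TPM at 48h, 21.9% of its 0h mean. Its log2 fold change was -2.17 (SE 0.18, adjusted p = 1.86e-06, limma) and -1.76 after scaling (adjusted p = 4.64e-07, with a range of 4.64e-07 to 0.000423 over 21 alternative settings). The 48h libraries of both lay well clear of the 0h range.

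Zfas1, host of Snord12 and of 2 further snoRNA genes, had the smallest change of the 8. It had 23.4, 15.9 and 16.3 TPM at 0h and 6.18, 7.19 and 14.5 at 48h. The groups did not overlap, but replicate 3 at 48h came close to the lowest 0h library, and the log2 fold change of -1.07 (SE 0.36) passed with an adjusted p of 0.0297 (limma). The call was lost under 2 settings that left out no library, among them median-of-ratios scaling (-0.66, adjusted p = 0.0825, with a range of 0.00425 to 0.114 over 21 alternatives). It was also lost without replicate 1 at 0h (-0.89, adjusted p = 0.105), without replicate 1 at 48h (-0.83, 0.114) and without replicate 2 at 48h (-0.94, 0.0979), and without replicate 3 at 48h it was -1.44 (adjusted p = 0.00425, limma).

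Replicate 3 had at every time point the lowest share of TPM at the ribosomal RNA pair of genes, and its part in these values was not tested further than by leaving it out. In a limma fit added after seeing the data, without the 4 replicate 3 libraries, 7 hosts were called lower at 48h. Snhg3 was the one not called (log2 fold change -2.35, adjusted p = 0.0548, with a range of 0.000588 to 0.044 over the 21 alternatives), and Zfas1 was at -1.52 (adjusted p = 0.00123). At 12h 5 hosts were called lower in that fit, with Snhg6 added (-1.39, adjusted p = 0.0456, with a range of 0.0856 to 0.475 over the 21 alternatives). The share of all genes called is given only for the fit to all 12 libraries, as deposited and after scaling. Counts from other settings, here and below, stand without it.

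**Figure D2:**
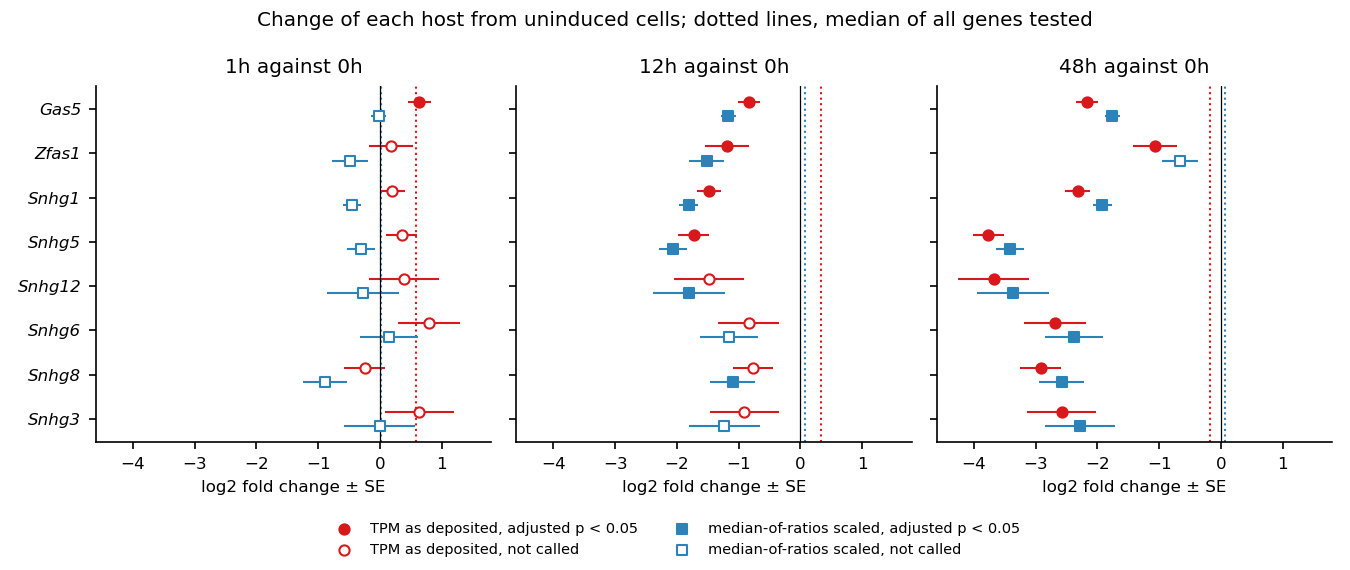
Log2 fold change of each host against 0h with its standard error, at 1h, 12h and 48h; red circles are TPM as deposited, blue squares are after median-of-ratios scaling, filled symbols passed an adjusted p of 0.05, and dotted lines mark the median of all genes. At 48h 15 of the 16 symbols are filled, the open one being Zfas1 after scaling. At 1h the red symbols run from -0.25, for Snhg8, to 0.79, with the red dotted line at 0.59.

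The fall was under way by 12h. At that time 4 hosts were called lower than at 0h, Snhg5, Snhg1, Zfas1 and Gas5, beside 7.82% of all genes, and none was called higher by limma, or was higher at an unadjusted p under 0.05, beside 22.3% of all genes called. After scaling Snhg12 and Snhg8 were called as well, making 6, beside 14.5% of all genes. The 12h libraries lay below all 0h libraries for these 6 hosts, as for 12.4% of genes. All 8 had a negative log2 fold change at 12h, between -1.73 and -0.77 as deposited and between -2.06 and -1.10 after scaling. Their median was -1.05, beside 0.34 for all genes.

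Snhg5 had 2.03, 3.09 and 3.21 TPM at 12h, 29.9% of its 0h mean (log2 fold change -1.73, SE 0.25, adjusted p = 0.000328, limma). Snhg1 had 4.79, 5.46 and 7.07 TPM, also clear of its 0h libraries (-1.48, SE 0.20, adjusted p = 0.000224, limma). Gas5 had 34.6, 36.6 and 51.6 TPM, all under its lowest 0h library (-0.83, SE 0.18, adjusted p = 0.00493, limma). These 3 kept their call at 12h under all 21 alternatives.

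Zfas1 had 6.05, 6.12 and 13.5 TPM at 12h, with replicate 3 far above the others. Its log2 fold change was -1.19 (SE 0.36, adjusted p = 0.0263, limma, with a range of 0.00106 to 0.0945 over 21 alternatives). The call was lost without replicate 1 at 0h (adjusted p = 0.0894), without replicate 1 at 12h (0.0926) and without replicate 2 at 12h (0.0945). It was also lost under 1 setting that left out no library (adjusted p = 0.0687, limma). Snhg12 had 1.41, 2.94 and 4.23 TPM (-1.48, SE 0.57, adjusted p = 0.0733 as deposited and 0.0349 after scaling, with a range of 0.0111 to 0.234). Snhg8 had 2.51, 3.31 and 2.52 TPM (-0.77, SE 0.33, adjusted p = 0.101 as deposited and 0.0376 after scaling, with a range of 0.0335 to 0.256). For Snhg6 (1.8, 1.91 and 2.46 TPM) and Snhg3 (2.22, 1.53 and 1.31 TPM) the 12h libraries overlapped those at 0h, and neither passed under any of the 21 alternatives.

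At 1h 5 of the 8 hosts changed by less than the median of all genes. Gas5 rose from 63.2 to 84.7 TPM at 0h to 114, 118 and 104 TPM, without overlap, and was the only host called (log2 fold change 0.64, SE 0.18, adjusted p = 0.0247, limma), beside 24.1% of all genes called higher. That change lay 0.048 above the median of all genes. With the libraries scaled by median of ratios it turned to -0.023 (adjusted p = 0.946, with a range of 0.0119 to 0.946 over 21 alternatives), and no host was then called higher by limma or was higher at an unadjusted p under 0.05, beside 5.42% of all genes called. The call was also lost without replicate 2 or 3 at 0h (adjusted p = 0.0923 and 0.0737) and without replicate 1 or 2 at 1h (0.0749 and 0.081). The 1h libraries of Snhg6 (7.03, 6.75 and 5.84 TPM) and Snhg12 (11, 9.21 and 9.1 TPM) also lay above those at 0h, as did those of 40.8% of all genes, without passing the test. Snhg8 had the one negative value as deposited, -0.25 (SE 0.33), with 2.24, 4.94 and 5.74 TPM. The median of the 8 was 0.37 as deposited, beside 0.59 for all genes, and -0.29 after scaling, beside 0.021. On the scaled values 7 of the 8 had a negative change. Of the 8, 2 were lower at an unadjusted p under 0.05 (limma), and none was called lower. The share of all genes with a negative change, or called lower, at 1h is not given, so these counts are not read as a trait of the hosts.

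The comparisons with 0h share the 0h libraries, so the steps between later times were tested as well. From 1h to 12h 6 hosts were called lower, all but Snhg3 and Snhg8, beside 15.0% of all genes, and 4 were after scaling, beside 8.77%. Snhg5 (-2.07, SE 0.25, adjusted p = 0.000154), Snhg1 (-1.68, SE 0.20, 0.000156) and Gas5 (-1.47, SE 0.18, 0.000189) had the firmest calls in this step (limma). The count fell to 3 without replicate 3 at 1h, without replicate 1 at 12h or without replicate 2 at 12h. From 12h to 48h 7 hosts were called lower, all but Zfas1, beside 31.7% of all genes. After scaling 3 were, Snhg5 (-1.37, adjusted p = 0.00153), Snhg8 (-1.48, 0.0115) and Gas5 (-0.60, 0.00434), beside 11.9%. Their ranges over the 21 alternatives were 5.47e-05 to 0.0105, 0.000109 to 0.0115 and 0.000129 to 0.0113. For Snhg1 this step was -0.11 on the scaled values (adjusted p = 0.66, with a range of 0.00436 to 0.66), against -0.84 as deposited.

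Zfas1 was the one host with no call from 12h to 48h. Its log2 fold change from 12h to 48h was 0.12 (SE 0.36, adjusted p = 0.839, limma) as deposited and 0.86 (SE 0.29, adjusted p = 0.0539, with a range of 0.0539 to 0.933 over 21 alternatives) after scaling. Without replicate 3 at 48h it was -0.25, and without replicate 3 at 12h it was 0.50. Replicate 3 held the highest Zfas1 of both time points. It also had the lowest share of TPM at the ribosomal RNA pair of genes within each time point, 72.8% at 12h and 75.7% at 48h, and the part of that in the Zfas1 values was not tested.

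The make-up of the host RNA is described here without a test. Gas5 took 53.1%, 50.1% and 55.9% of the summed TPM of the 8 hosts at 0h and 56.6%, 57.4% and 40.9% at 48h, so its share overlapped between the ends of the series. Zfas1 took 14.7%, 12.6% and 13.3% at 0h and 23.4%, 24% and 38.7% at 48h. Every 48h library had a higher Zfas1 share than any of the 9 earlier libraries, whose highest was 15.7%. Snhg5 went the other way, from 6.54%, 7.18% and 6.81% to 2.5%, 1.34% and 2%, and Snhg12 from 5.51 ± 0.414% to 2.03 ± 1.6% (SD, n = 3). At 48h Gas5, Zfas1 and Snhg1 were apart from each other and from the rest, at 15.8 ± 1.19, 9.3 ± 4.56 and 3.14 ± 0.173 TPM. The other 5 hosts, which at 0h had ranged from 3.53 to 9.29 TPM on average, all had means between 0.557 and 0.673 TPM with overlapping libraries.

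**Figure D3:**
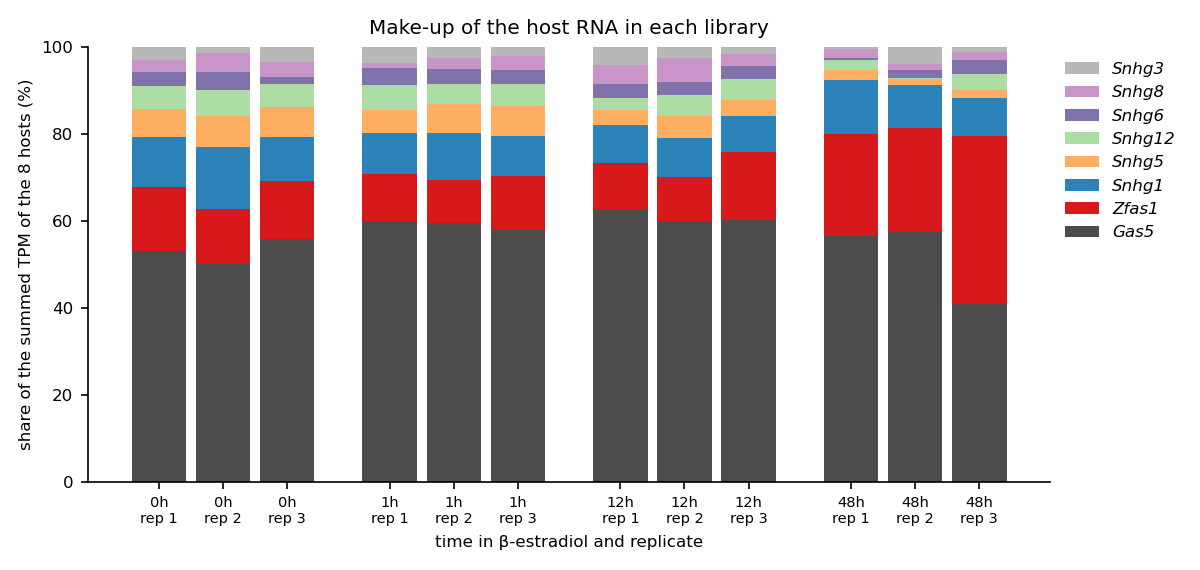
Share of each host in the summed TPM of the 8 hosts, as stacked bars of 100% for each of the 12 libraries. The Zfas1 band is 12.6% to 14.7% of the sum at 0h and 23.4% to 38.7% at 48h, with its widest band in replicate 3 at 48h.

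The snoRNAs themselves gave few usable values. The authors extracted RNA with an RNeasy mini kit, and no step for short RNAs is described. How much of the mature snoRNAs these libraries hold was not tested, so a row at 0 does not show that a snoRNA was absent from the cells. Of the 32 snoRNA rows inside the 8 hosts, 20 were listed at 0 TPM in all 12 libraries, among them both snoRNAs of Snhg5, 7 of the 8 of Snhg1 and 8 of the 10 of Gas5. The 20 include an entry each of Snord80 and Snora16a, which the annotation lists more than once. The other 12 passed the filter, and in the fit to all 12 libraries limma called none of them in any of the 5 comparisons, before or after scaling, with 0 to 1 of the 12 at an unadjusted p under 0.05 in each. At 48h against 0h 27.2% of all genes were called lower and 15.9% higher. Rows mostly at 0 had little room to be called, so the count of 0 is not read as no change. The Snord80 row that passed and Snord87 were at 0 in 11 libraries, and Gm22357, Gm23201 and Snora24 in 9. The SE of Gm22357 was 4.89 on the log2 scale. This count of 0 also depended on replicate 3. Snora73a and Snora73b, the long snoRNAs of Snhg3, were the 2 above 0 in every library. Snora73a had 56.1, 78.7 and 135 TPM at 0h and 24, 22.1 and 142 at 48h, and Snora73b had 51.6, 67.1 and 140 against 12, 19.6 and 120. In both, replicate 3 was the highest library of its time point at 0h and at 48h and the groups overlapped. In the added limma fit without the 4 replicate 3 libraries both were called lower at 48h, by log2 fold changes of -1.53 for Snora73a and -1.94 for Snora73b, as was Snora61 of Snhg12, and Snord22 of Snhg1 was called higher at 12h. At 48h 3 of the rows were also called lower with a replicate block, and 4 without replicate 3 at 48h alone. The share of all genes called in those fits is not given. The 2 are near copies of each other, and reads may be split between them.

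Several hosts share their locus with another gene, and these neighbours did not move as one. Snhg1 starts 106 bases from Slc3a2 (ENSMUSG00000010095), the heavy chain of an amino acid transporter, on the opposite strand and without overlap. Slc3a2 rose from 39.2, 31 and 29.2 TPM at 0h to 75.5, 82.1 and 105 at 12h (log2 fold change 1.40, SE 0.20, adjusted p = 0.000359, limma), while Snhg1 fell, and at 48h it had 28.9, 27.2 and 27.4 TPM, not passing the test. Zfas1 overlaps the start of Znfx1 (ENSMUSG00000039501), a zinc finger helicase, by 82 bases on the opposite strand. Znfx1 rose from 1.42, 0.92 and 1.19 TPM at 0h to 21, 26.7 and 33.3 at 48h (4.40, SE 0.23, adjusted p = 5.95e-08, limma). Its highest library at 12h and at 48h was replicate 3, as for Zfas1. How the counting used strand is not given in the sources used here, so reads from the shared bases cannot be told apart, and the part of Znfx1 in the Zfas1 values was not tested.

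Snhg3 overlaps Rcc1 (ENSMUSG00000028896), which encodes the exchange factor of the Ran GTPase, on the same strand, with 5592 bases in common. Rcc1 had 6.62, 5.56 and 6.54 TPM at 0h and 0.27, 1.29 and 1.05 at 48h (log2 fold change -2.91, SE 0.40, adjusted p = 9.5e-05, limma), close to the -2.58 of Snhg3. Gm17300 (ENSMUSG00000091021), a noncoding gene on the opposite strand inside Snhg3, fell by 3.33 on the same scale (adjusted p = 3.96e-07, limma). Levels of these 3 genes are uncertain, because reads from their common bases could be assigned to any of them. Mcmdc2 (ENSMUSG00000046101), which overlaps the end of Snhg6 by 127 bases on the opposite strand, rose by 1.16 (adjusted p = 0.0064, limma), while Snhg6 fell. Zbtb37 (ENSMUSG00000043467) overlaps the start of Gas5 by 428 bases on the opposite strand and had 0.767 ± 0.211 TPM at 0h and 0.493 ± 0.0764 at 48h, not passing the test. For Snhg6 and Gas5, as for Zfas1, reads from the bases shared with the neighbour cannot be told apart.

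**Figure D4:**
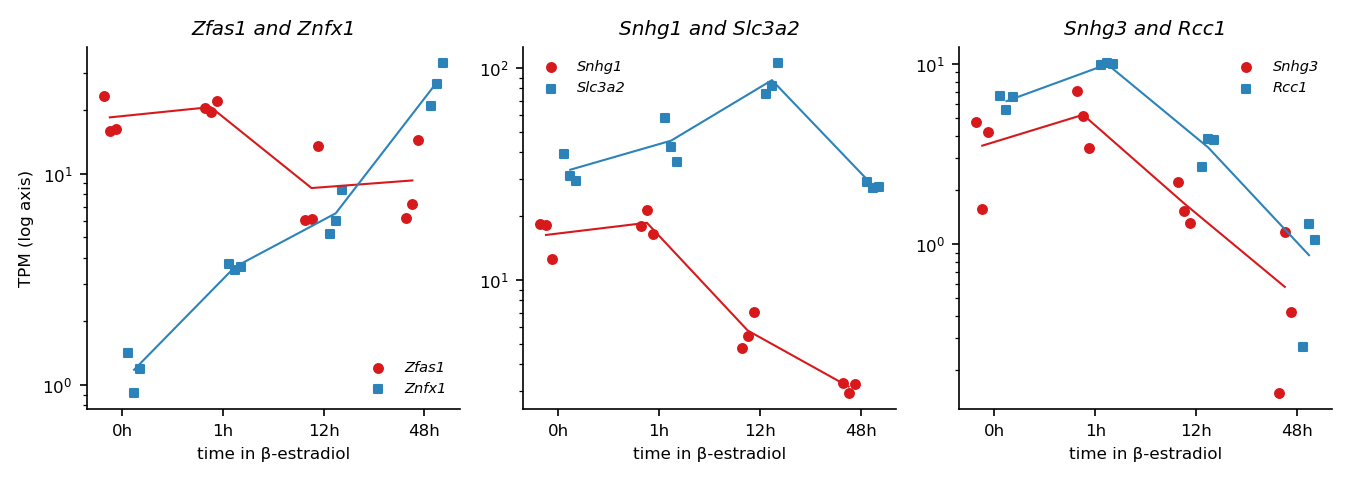
TPM on log axes of 3 hosts (red circles) and the gene at the same locus (blue squares) by time in β-estradiol, with points for libraries and lines through the means of 3. Znfx1 rises to 21 to 33.3 TPM at 48h while Zfas1 is at 6.18 to 14.5, Slc3a2 peaks at 75.5 to 105 TPM at 12h, and Rcc1 and Snhg3 fall side by side.

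Genes that work with snoRNAs were read from lists chosen with earlier results known. All 8 core proteins, fibrillarin (Fbl), Nop56, Nop58 and Snu13 of the C/D class and Dkc1, Nhp2, Nop10 and Gar1 of the H/ACA class, were called lower at 48h, before and after scaling, beside 27.2% and 22.0% of all genes, and their median log2 fold change was -3.81 beside -2.64 for the hosts. Nop56, the most abundant of them, had 53.1, 62.5 and 52 TPM at 0h and 3.74, 4 and 3.91 at 48h (-3.81, SE 0.17, adjusted p = 1.45e-08, limma). Fbl, the methyltransferase, had the largest fall, from 18.7, 19.2 and 20.4 TPM to 0.1, 0.47 and 2.44 (-4.88, SE 0.65, adjusted p = 8.36e-05, limma). At 12h 6 of the 8 were called lower, beside 7.82% of all genes.

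Of 12 assembly factors of these particles, 10 were called lower at 48h and 8 after scaling, beside 27.2% and 22.0% of all genes, and limma called none higher, beside 15.9%. Nolc1, a chaperone of the particles in the nucleolus and the most abundant of the list, had 20.3, 19.5 and 19.6 TPM at 0h and 1.18, 1.76 and 2.36 at 48h (log2 fold change -3.46, adjusted p = 2.57e-07, limma). The helicase subunit Ruvbl2 fell by 3.58 (adjusted p = 2.71e-05, limma). Znhit3 and Tgs1 were the 2 not called, with 2 ± 0.35 and 2.77 ± 0.144 TPM at 0h and 1.98 ± 0.837 and 2.3 ± 0.738 at 48h. In a list of 20 genes for ribosome biogenesis 18 were called lower at 48h, before and after scaling, beside 27.2% and 22.0% of all genes, with a median of -2.52. Npm1, a nucleolar chaperone and the most abundant of them, went from 247, 210 and 183 TPM to 21.3, 25.2 and 15.9 (-3.36, adjusted p = 1.48e-07, limma), and Rrp9 had the largest fall of that list (-3.89, adjusted p = 4.18e-05, limma).

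Of 23 protein-coding TOP mRNAs, Npm1 among them, 22 were called lower at 48h (20 after scaling), beside 27.2% and 22.0% of all genes, with a median of -1.78. At 12h 3 were called lower, beside 7.82% of all genes, with a median of -0.32. After scaling 19 of the 23 were called lower at 12h, beside 14.5% of all genes, and without the replicate 3 libraries 10 were. Eef1a1, the most abundant, had 1411, 1342 and 1263 TPM at 0h, 962, 1083 and 1492 at 12h and 387, 441 and 495 at 48h, so its 12h libraries overlapped those at 0h. Hnrnpa1 had the largest fall of the list, by 3.50 at 48h (adjusted p = 1.85e-07, limma). The difference in timing between the hosts and these mRNAs was not tested.

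Among 13 genes of the pathway that controls TOP mRNA translation, 7 were called lower at 48h (53.8%) and 4 after scaling (30.8%), beside 27.2% and 22.0% of all genes, so the scaled share lay near that of all genes. Mtor, its kinase, had 8.68, 8.18 and 7.81 TPM at 0h, 2.04, 2.2 and 2.86 at 12h and 1.03, 1.15 and 1.76 at 48h (log2 fold change at 48h -2.59, adjusted p = 1.74e-06, limma). Eif4ebp1, a translation repressor under that kinase and the most abundant of the list, fell by 2.51 at 48h (adjusted p = 3.57e-06, limma) and had a change of 0.0091 at 12h. Of 17 NMD genes, 10 were called lower (58.8%) and 3 higher (17.6%) at 48h, beside 27.2% and 15.9% of all genes, so the share called higher was close to that of all genes. After scaling 9 were lower (52.9%) and 5 higher (29.4%), beside 22.0% and 24.5% of all genes. Eif4a3, of the exon junction complex, was both the most abundant and the one with the largest fall (-2.57, adjusted p = 1.47e-05, limma), and the exonuclease Xrn1 rose most, by 1.16 (adjusted p = 0.0137, limma).

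**Figure D5:**
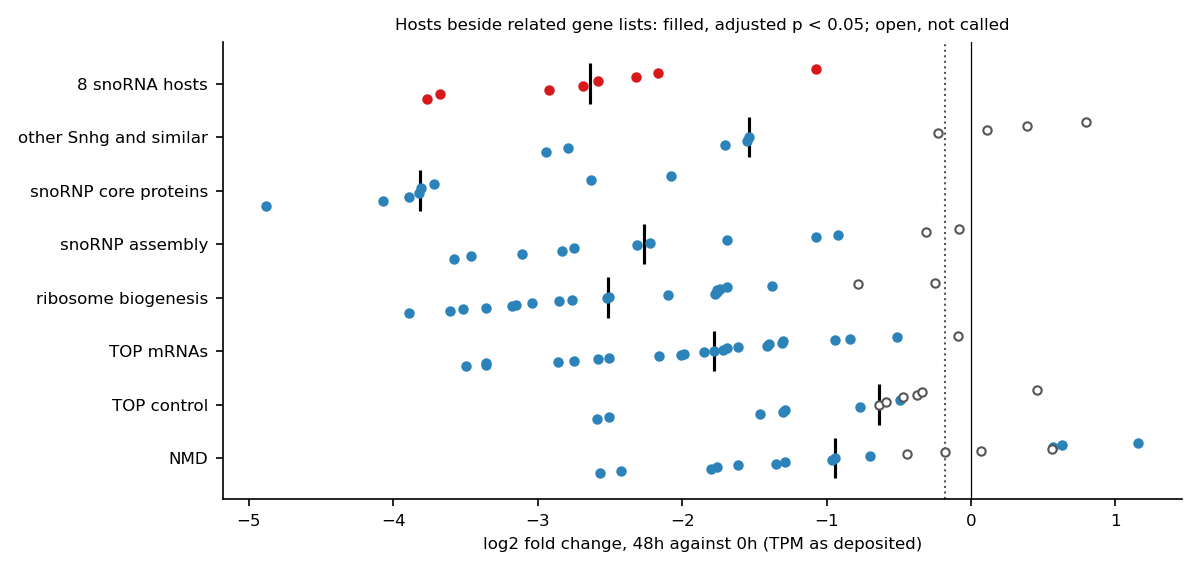
Log2 fold change at 48h against 0h, TPM as deposited, of the 8 hosts (red) and of 7 lists of related genes (blue), one point per gene; filled points passed an adjusted p of 0.05, black bars are list medians and the dotted line is the median of all genes at -0.18. The medians run from -3.81 for the snoRNA particle core proteins, with -2.64 for the hosts, to -0.64 for the TOP control list.

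Other hosts were compared with the 8. Of 11 further Snhg genes and similar hosts found in the table, 9 passed the filter and 5 were called lower at 48h (55.6%) and 3 after scaling (33.3%), beside 27.2% and 22.0% of all genes, and 3 were without the replicate 3 libraries. Snhg17 fell by 2.94 (adjusted p = 3.43e-06, limma), from 6.33, 6.3 and 4.84 TPM to 0.63, 0.69 and 0.68. Snhg14, the most abundant of them, had 2.22, 4.25 and 4.87 TPM at 0h and 3.26, 4.35 and 4.1 at 48h, which overlapped. The annotation places a snoRNA gene, predicted ones included, inside 320 other genes on the same strand, of which 222 passed the filter. Nop56, Rcc1, Snhg14 and Snhg17 are among them. At 48h 140 of these (63.1%) were called lower and 14 (6.31%) higher, beside 27.2% and 15.9% of all genes. After scaling 120 (54.1%) were called lower and 32 (14.4%) higher, beside 22.0% and 24.5% of all genes. All 30 ribosomal protein genes among them were called lower (29 after scaling), and so were 14 of the 23 noncoding ones (12 after scaling). The extremes were genes known for other things, the DNA topoisomerase Top2a at -6.31 and the membrane dipeptidase Dpep2 at 7.39.

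The genes whose profile over the 12 libraries was most like the mean profile of the 8 hosts were found by the root mean square distance between centred log2(TPM + 0.1) values, among 9323 genes with a mean of at least 1 TPM. The nearest was Xrcc1, a scaffold of DNA single-strand break repair, at 0.145, followed by Nol9, Tubb5, Hist1h1e, Ptma, Nup188, Hnrnpab, Abcf2, Eif4a3 and Pus7, the last at 0.208. The median distance of all genes compared was 1.04. Xrcc1 had 5.86, 6.64 and 5.34 TPM at 0h and 0.74, 0.77 and 1.3 at 48h. The hosts themselves lay farther from their own mean, from 0.261 for Gas5 and 0.309 for Snhg1 to 0.753 for Zfas1. The points share libraries, and the 12 libraries are 4 time points, so closeness here says that genes followed the same steps in time.

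Promoter contacts were read from promoter capture Hi-C, a method that lists restriction fragments in contact with a captured promoter fragment, the bait. The lists merge 2 replicates for each time point, so counts of contacts have no replicate error and were not tested. All 8 hosts had a bait holding one of their annotated transcript starts, but for Snhg6 and Snhg12 it did not hold the start of the gene. The bait of Snhg6 (chr1:9935386-9943161) was the busiest, with 100, 104, 87 and 102 contacts at 0h, 1h, 12h and 48h, where the median of 23193 genes with a bait was 5 at each time. Snhg1 had 43, 47, 44 and 25, and Snhg3 had 25, 14, 21 and 15. These 2 hosts and Snhg6 were above the upper quartile of 13 contacts throughout.

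Gas5 had 15, 19, 9 and 7 contacts and Zfas1, with 2 baits, had 19, 18, 15 and 7. Snhg5 had 13, 19, 11 and 11, Snhg8 had 11, 10, 7 and 12, and Snhg12 had 7, 3, 5 and 5. At 48h 6 of the 8 hosts had fewer listed contacts than at 0h, all but Snhg6 and Snhg8, as had 57.3% of the 11888 genes with at least 5 contacts at 0h. The largest drops were those of Snhg1, of Zfas1 and of Snhg3. Of the 43 contacts of Snhg1 at 0h 22 were listed again at 48h, and 36 had a contact within 10 kb. The baits of Snhg1, Snhg3 and Gas5 also hold the start of Slc3a2, Rcc1 and Zbtb37 in turn, and the first Zfas1 bait, with 12, 9, 7 and 3 contacts, that of Znfx1, so these contacts cannot be assigned to one gene of the pair. The second Zfas1 bait, with 7, 9, 8 and 4 contacts, holds no start of another protein-coding gene. The bait of Snhg1 was in contact at all 4 times with those of Eef1g, a TOP mRNA gene, of Wdr74 and of Polr2g, and the bait of Gas5 with that of Cenpl.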

How the data were processed

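RNA-seq of C10 cells was done on total RNA after depletion of ribosomal RNA. The authors removed adapters with Trim Galore 0.6.2, aligned reads to mm10 with HISAT2 2.1.0, quantified genes with RSEM, merging technical replicates, and deposited TPM for 12 libraries. TPM hold no record of sequencing depth, so no counting error can be given, and the number of replicates limits the precision. Genes with a mean of at least 0.1 TPM (16415) were fitted as log2(TPM + 0.1), for which fold changes of low genes depend on the 0.1, with limma 3.58.1 (R 4.3.3), 12 libraries in 1 model with a variance trend, and Benjamini-Hochberg adjustment over all genes. A fold change is called at an adjusted p under 0.05. In simulated data for 48h against 0h on 16289 genes the fit recovered 92% of changes of log2 size 3 and 63% of size 1.5. It also called 9 unchanged genes. The simulation changed 200 genes, all over 1 TPM, and capped the SD of a gene at 1.5. It held the 20 most abundant genes at their means, so it did not carry the differences in ribosomal RNA share between the real libraries. Median-of-ratios scaling divided each library by the median ratio of its genes to their geometric means. Promoter contacts were called by the authors with CHiCAGO on 2 merged replicates in mm10. The deposited 0h list gives the CHiCAGO score, and the 3 later lists give other whole numbers of an unnamed unit, so only the presence of a contact was used. Named genes were the 8 hosts, the neighbours that overlap them or start within 1 kb, the 10 genes nearest in profile and, in each list, the most abundant gene and the largest called increase and decrease at 48h. Some genes that this rule names are not reported here. Other genes named were chosen after their values were seen. The hosts and the lists were chosen with earlier results of these data known, and no list is independent evidence of its direction.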

Additional observations from a re-analysis of the deposited data

How the results depend on the processing

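All 8 hosts remained lower at 48h than at 0h under every one of 21 alternatives, and 7 or 8 of them were called. At 12h 4 to 6 were called outside the settings that left out a library. The 1 host called higher at 1h, Gas5, was not called after median-of-ratios scaling (0 hosts, with its log2 fold change reversed to -0.023), after rescaling without the 20 most abundant genes (0) or without the variance trend (0), and leaving out single libraries gave 0 to 1. The number called lower from 12h to 48h was 7, but 3 after median-of-ratios scaling and 4 when only those 2 time points were fitted. From 1h to 12h it was 6, and leaving out single libraries gave 3 to 7. Replicate numbers did not meet the rule for pairing, that every pair's correlation of deviations from the time point means be over 0.1 (range -0.0123 to 0.257). The 6 pairs of replicate 3 libraries were all positive, from 0.0698 to 0.257, as were those of replicate 1, from 0.00719 to 0.111. Those of replicate 2 ran from -0.0123 to 0.0555. A replicate block left 8 hosts lower at 48h, 4 at 12h, 5 from 1h to 12h and 6 from 12h to 48h. In a fit added after seeing the data, without the 4 replicate 3 libraries, the counts were 7 lower at 48h, 5 at 12h, 6 from 1h to 12h, 6 from 12h to 48h and 1 higher at 1h. For these settings the share of all genes called is not given, except after median-of-ratios scaling. Except where a setting removes samples or genes, the cause was not tested. At 0h, keeping contacts with a score of at least 10 left 2 to 37 per host. With 3 libraries a group, low hosts such as Snhg3 had standard errors of up to 0.57 on the log2 scale, so smaller changes could not be resolved.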

Other observations

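The short snoRNA rows inside the hosts differed between replicates. Summed over the rows, replicates 1, 2 and 3 held 121, 173 and 2153 TPM at 0h and 148, 182 and 4429 TPM at 1h. The sums were 81.4, 175 and 320 TPM at 12h, and 35.9, 46.9 and 1796 TPM in the 48h group, so replicate 3 was the highest library at each of the 4 times. Most of it came from Gm22357, a snoRNA gene inside Gas5 (ENSMUSG00000064816, chr1:161036057-161036139, plus strand), which was listed at 0 in 9 libraries and at 1617, 3386 and 1335 TPM in replicate 3 at 0h, 1h and 48h. Gm23201, inside Zfas1, followed the same pattern, with 97.9, 278 and 111 TPM in those 3 libraries and 0 in the other 9. The Gas5 host row was not highest in replicate 3 at 0h, 1h or 48h, while the Zfas1 host row was highest there at 1h, 12h and 48h. This pattern was noticed in the data and was not tested.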
